A study of Homo sapiens with 12 samples.

Results

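The genes described were 10 enzymes, transporters and transcription factors that mark serotonin and dopamine neurons. They were TPH2, FEV, GATA2, GATA3, LMX1B, LMX1A, TH, DDC, SLC18A2 and SLC6A4. Each was chosen by name and matched by its symbol to 1 of the 63925 Ensembl gene IDs listed for every library. Of the 10, 9 had enough counts to be tested, and SLC6A4 did not. RNA with a poly(A) tail had been sequenced from 12 neural cultures grown from the human embryonic stem cell lines H9 and H1, which are established lines. The cultures had been differentiated for 10 weeks by dual SMAD inhibition, which turns stem cells into neural tissue, and the stem cells had been kept on feeder layers of mouse fibroblasts. The groups were H9 dexamethasone, H9 vehicle, H1 dexamethasone and H1 vehicle, with 3 sister cultures each. Dexamethasone, a drug that activates the glucocorticoid receptor, was given at 1 µM for 6 h, and the vehicle was DMSO for the same time. All groups shared a medium with B-27, ascorbic acid, cyclic AMP, BDNF and GDNF. The labels name no genetic change in either line and give no differentiation run or flow cell for any library. Line and differentiation run therefore cannot be told apart, and the p-values reflect variation among sister cultures only.

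Serotonin and dopamine are monoamines made from amino acids by a short shared route. TPH2 in serotonin neurons and TH in dopamine neurons carry out the first and limiting hydroxylation, DDC removes the carboxyl group in both, and the vesicle transporter encoded by SLC18A2 loads both products. FEV, the human counterpart of mouse Pet1, acts together with GATA2, GATA3 and LMX1B to install the serotonin programme in the hindbrain of the mouse, while LMX1A and LMX1B help specify dopamine neurons from the ventral midbrain. SLC6A4 encodes the transporter that takes serotonin back up. Several of these factors are not private to monoamine neurons: LMX1A also marks the roof plate, and GATA2 and GATA3 also mark inhibitory neurons of the midbrain and spinal cord and many cells outside the brain. TH is also transcribed in some neurons that make no dopamine.

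Total counts lay between 14751168 and 27505804 per library. H9 vehicle culture 3 stood apart. It had the lowest total, with 0.607% of its counts on mitochondrial genes, where the remaining H9 cultures had 4.80% to 5.64% and H1 cultures 2.91% to 3.23%. Its root mean square log2 distance from its group was 0.569, against 0.179 to 0.341 elsewhere. FKBP5, a direct target of the glucocorticoid receptor, was higher under dexamethasone by 2.68 ± 0.15 in H9 and 2.01 ± 0.15 in H1 on the log2 scale (± SE; edgeR adjusted p = 1.24e-05 and 0.00021). Pan-neuronal markers were present in every library, with a summed level of 3320 to 5341 CPM (the count divided by the TMM-scaled library size and given per 1000000 counts). TUBB3, 1 of these markers, averaged only 0.327 to 0.691 CPM by group. Exons of other genes on its strand cover 35.8% of its exonic bases. Among the neural progenitor markers, SOX2 and HES5 were listed at 0 in all 12 libraries, so a listed 0 is given here as listed and not read as absence.

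H9 cultures carried more RNA of most of these genes than H1 cultures. Of the 9 tested, 7 were higher in H9 than in H1 under dexamethasone and 8 under vehicle at an adjusted p under 0.05 in edgeR's quasi-likelihood test, and none was lower. The lines differed widely, since 43.6% of all 17819 genes tested passed under dexamethasone (22.5% higher in H9 and 21.2% lower) and 46.9% under vehicle (25.7% higher and 21.2% lower). The median log2 difference was 2.74 over the 9 genes against -0.01 over all genes under dexamethasone, and 2.71 against 0.03 under vehicle. These counts and medians lean on the filter for low counts: TPH2, FEV, GATA2 and GATA3, 4 of the 9, reached the minimum (the share of reads that 10 reads make in a library of median depth, in at least 3 libraries) through H9 and would not have done so through H1, while SLC6A4, with fewer reads in H9 than in H1, was filtered out. The genes were also chosen with earlier results of these data known. The counts and medians are therefore given as a description. With no filter and all 10 genes in the fit, 7 were higher under dexamethasone and 8 under vehicle, and SLC6A4 did not pass. This count too is a description, as the shares given here are for the 17819 genes of the filtered fit. Under dexamethasone 7 of the 9 did not overlap between the lines, all higher in H9, against 33.7% of all genes higher and 34.5% lower without overlap. Under vehicle 8 of the 9 did not, all higher in H9, against 27.5% higher and 27.2% lower. Both line contrasts use separate cultures, but all of them come from the same 2 lines. In these bulk samples, fewer cells of a type and less RNA per cell cannot be told apart.

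**Figure D1:**
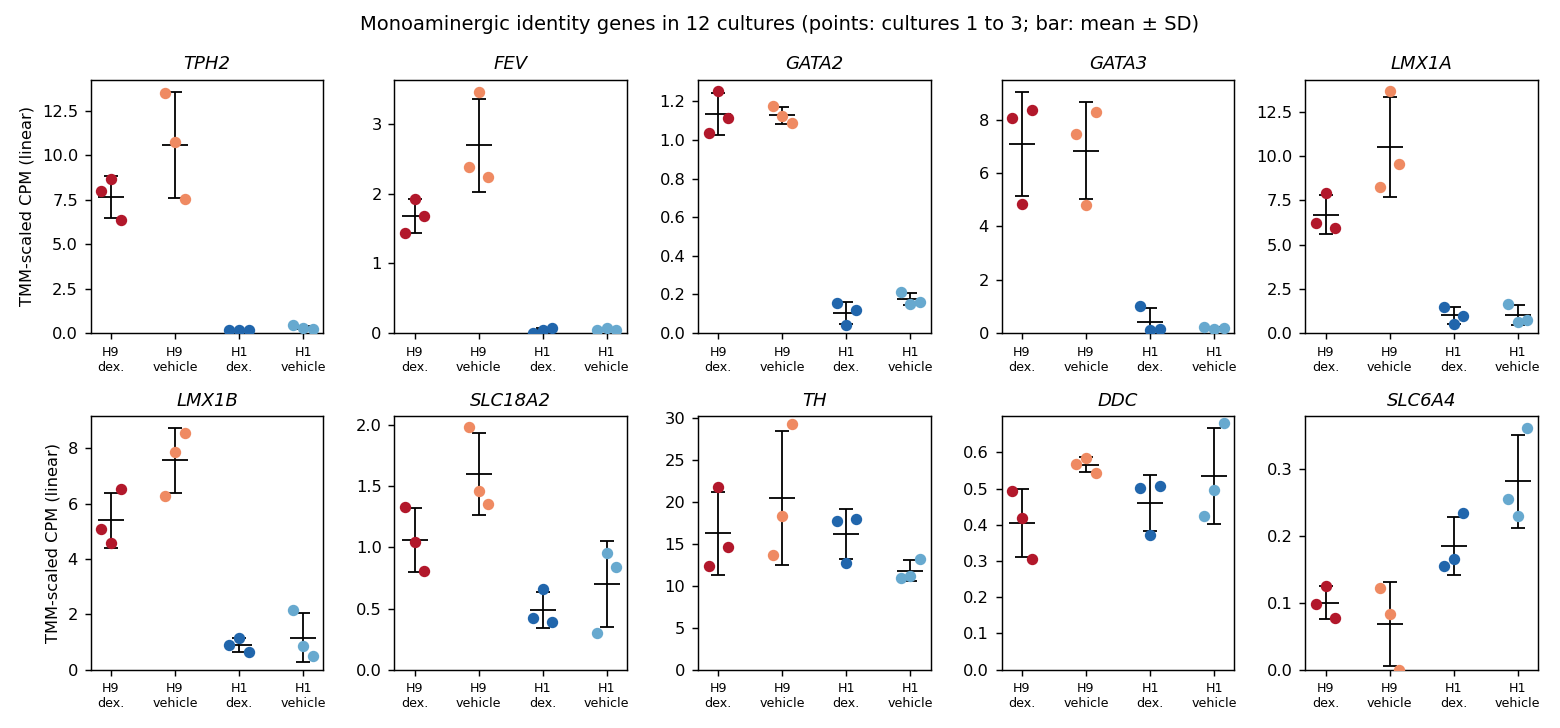
Levels of the 10 genes in each culture, as TMM-scaled CPM on a linear axis that starts at 0, with points for cultures 1 to 3 from left to right and a bar for the mean ± SD of each group. For TPH2, FEV, GATA2, GATA3, LMX1A and LMX1B every H9 culture lies above every H1 culture, while TH and DDC overlap between lines under dexamethasone and SLC6A4 is under 0.4 CPM throughout.

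TPH2 (ENSG00000139287.12; chromosome 12, 71938846 to 72186618, plus strand, GRCh38), the neuronal tryptophan hydroxylase, had 7.99, 8.64 and 6.33 CPM in the H9 dexamethasone cultures and 13.5, 10.7 and 7.54 CPM in the H9 vehicle cultures. In H1 it had 0.193, 0.165 and 0.156 CPM under dexamethasone, from 5, 4 and 4 reads, and 0.424, 0.305 and 0.240 CPM under vehicle, from 10, 8 and 6 reads. Every H9 culture was above every H1 culture. By summed counts H9 exceeded H1 by a factor of 44.3 under dexamethasone (exact 95% interval 25.7 to 83.7) and 34.5 under vehicle (23.0 to 54.2). Such intervals cover counting error only, as the reads carry no molecular identifiers. The log2 difference was 5.44 ± 0.32 under dexamethasone and 5.03 ± 0.29 under vehicle (adjusted p = 1.59e-07 and 1.58e-07).

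FEV (ENSG00000163497.2; chromosome 2, 218981087 to 218985657, minus strand), the ETS factor that drives TPH2 transcription in mouse serotonin neurons, had 1.43, 1.92 and 1.69 CPM in H9 under dexamethasone and 2.39, 3.47 and 2.24 CPM under vehicle. The H1 libraries held 0, 1 and 2 FEV reads under dexamethasone and 1, 2 and 1 under vehicle. H9 and H1 did not overlap. The 0 in H1 dexamethasone culture 1 allows a level of up to 0.116 CPM, the value of 3 reads. The ratio of summed counts was 42.8 under dexamethasone (119 against 3 reads, 95% interval 14.3 to 210) and 51.6 under vehicle (175 against 4 reads, 19.8 to 192), with adjusted p = 4.02e-06 and 1.5e-06.

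GATA3 (ENSG00000107485.15; chromosome 10, 8045378 to 8075203, plus strand) and GATA2 (ENSG00000179348.11; chromosome 3, 128479427 to 128493185, minus strand) are zinc finger factors of serotonin neuron development in the mouse hindbrain. GATA3 had 8.09, 4.84 and 8.36 CPM in H9 dexamethasone cultures and 7.46, 4.80 and 8.29 CPM in H9 vehicle cultures. In H1 it had 1.00, 0.124 and 0.156 CPM under dexamethasone and 0.212, 0.153 and 0.200 CPM under vehicle. The lines did not overlap, and 1 H1 culture stood above its sisters. H9 was higher by 4.02 ± 0.51 under dexamethasone and 5.14 ± 0.58 under vehicle on the log2 scale (adjusted p = 6.24e-05 and 2.78e-05). GATA2 was rarer, at 1.04, 1.25 and 1.11 CPM in H9 dexamethasone cultures and 1.18, 1.13 and 1.09 CPM in H9 vehicle cultures, against 0.0412 to 0.154 CPM in H1 dexamethasone cultures, from 4, 1 and 3 reads, and 0.153 to 0.212 CPM in H1 vehicle cultures, from 5, 4 and 4 reads. H9 and H1 did not overlap. The log2 difference was 3.37 ± 0.33 under dexamethasone and 2.67 ± 0.31 under vehicle (adjusted p = 8.38e-06 and 3.1e-05).

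LMX1B (ENSG00000136944.17; chromosome 9, 126614443 to 126701032, plus strand), a LIM homeodomain factor needed for serotonin neurons and used in midbrain dopamine neurons, had 5.08, 4.59 and 6.52 CPM in H9 dexamethasone cultures and 6.28, 7.85 and 8.56 CPM in H9 vehicle cultures. H1 cultures had 0.888, 1.15 and 0.625 CPM under dexamethasone and 2.16, 0.840 and 0.480 CPM under vehicle. The lines did not overlap, although H1 vehicle culture 1 stood above its sisters. H9 was higher by 2.60 ± 0.41 under dexamethasone and 2.71 ± 0.39 under vehicle on the log2 scale (adjusted p = 0.000292 and 0.000178).

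SLC6A4 (ENSG00000108576.9; chromosome 17, 30194319 to 30236002, minus strand), the serotonin transporter, was rare in every library. It had 2, 3 and 2 reads in the H9 dexamethasone cultures and 3, 2 and 0 in the H9 vehicle cultures, against 4, 4 and 6 in the H1 dexamethasone cultures and 6, 6 and 9 in the H1 vehicle cultures. No library reached 0.4 CPM, and the gene failed the filter on low counts. The ratio of summed counts, H9 over H1, was 0.539 under dexamethasone (95% interval 0.184 to 1.43) and 0.281 under vehicle (0.0828 to 0.766). With all 33131 genes that had a count in the fit, the log2 difference was -0.84 ± 0.70 and -1.81 ± 0.71 (adjusted p = 0.488 and 0.063). A line difference in SLC6A4 thus did not pass after adjustment over all genes of that fit. Under vehicle the interval for counting error lay wholly on the side of lower levels in H9.

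The promoters of TPH2 and FEV, whose log2 differences between the lines were among the largest, and of SLC6A4, which was too rare to test, are shown for comparison. Each line gives the 250 bases before the start, 5′ to 3′ on the gene's strand, from RefSeq on GRCh38.p14. Capitals mark the letters GATAA (the core of GATA factor motifs), TAATTA (a homeodomain core, as LMX1A and LMX1B prefer) and AGAACA (the hexamer of glucocorticoid receptor sites), searched on both strands with no overlap between marked matches.
TPH2, chr12:71938595-71938844, plus strand: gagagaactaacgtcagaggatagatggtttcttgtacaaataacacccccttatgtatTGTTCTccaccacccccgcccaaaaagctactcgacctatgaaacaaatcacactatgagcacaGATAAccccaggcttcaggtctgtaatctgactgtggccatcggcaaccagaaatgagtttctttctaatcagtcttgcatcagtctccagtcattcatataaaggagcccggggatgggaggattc
FEV, chr2:218985185-218985434, minus strand: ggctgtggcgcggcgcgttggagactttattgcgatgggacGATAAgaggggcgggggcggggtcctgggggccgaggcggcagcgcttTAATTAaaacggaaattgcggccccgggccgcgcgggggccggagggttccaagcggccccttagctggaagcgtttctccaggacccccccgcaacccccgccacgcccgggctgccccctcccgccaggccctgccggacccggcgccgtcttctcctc
SLC6A4, chr17:30235698-30235947, minus strand: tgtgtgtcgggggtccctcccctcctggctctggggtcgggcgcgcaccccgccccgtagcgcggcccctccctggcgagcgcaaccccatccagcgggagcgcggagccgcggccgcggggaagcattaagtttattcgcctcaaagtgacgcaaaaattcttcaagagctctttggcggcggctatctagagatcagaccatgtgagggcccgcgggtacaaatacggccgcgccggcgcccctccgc

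The TPH2 stretch holds 1 GATAA match, read as GATAA in the transcribed direction, and 1 AGAACA match, read as TGTTCT. The FEV stretch holds 1 GATAA and 1 TAATTA, and the SLC6A4 stretch holds none of the 3 motifs. Over windows of 300 bases that reach 50 bases past the start, 17 windows covered 9 of the genes. GATAA was found in 3 of these 17 windows (1 each of TPH2, FEV and GATA3), and in 22.7% of all 35116 windows in the table. TAATTA was found in 1 of the 17 (FEV), with 4.84% of all windows, and AGAACA in 1 (TPH2), with 14.8%. The ETS core GGAA was found in 16 of the 17 and in 95.5% of all windows. These matches describe letters and not binding.

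LMX1A (ENSG00000162761.14; chromosome 1, 165201867 to 165356715, minus strand), a determinant of midbrain dopamine neurons and of the roof plate, had 6.21, 7.93 and 5.91 CPM in H9 dexamethasone cultures and 8.23, 13.7 and 9.58 CPM in H9 vehicle cultures. It had 1.47, 0.536 and 0.976 CPM in H1 dexamethasone cultures and 1.65, 0.649 and 0.720 CPM in H1 vehicle cultures. The lines did not overlap. The log2 difference was 2.74 ± 0.37 under dexamethasone and 3.39 ± 0.37 under vehicle (adjusted p = 0.000105 and 2.19e-05).

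TH (ENSG00000180176.14; chromosome 11, 2163929 to 2171877, minus strand), the tyrosine hydroxylase of dopamine and noradrenaline synthesis, had the highest level of the 10 per kilobase of exon in all 4 groups. It had 12.3, 21.8 and 14.7 CPM in H9 dexamethasone cultures and 13.7, 18.3 and 29.2 CPM in H9 vehicle cultures, against 17.8, 12.7 and 17.9 CPM in H1 dexamethasone cultures and 10.9, 11.2 and 13.2 CPM in H1 vehicle cultures. Under dexamethasone the lines overlapped, and the log2 difference was 0.01 ± 0.27 (95% interval -0.58 to 0.60, adjusted p = 0.98). Under vehicle the lowest H9 culture was just above the highest H1 culture, and the difference was 0.78 ± 0.27 (adjusted p = 0.0332). The vehicle call was lost without H9 vehicle culture 3, the culture with the highest TH, where the difference was 0.44 (adjusted p = 0.0761). It was also lost without H1 vehicle culture 1, 2 or 3 (adjusted p = 0.0962, 0.0923 and 0.0528), in limma-voom (adjusted p = 0.0553) and with only the vehicle libraries in the fit (0.0691).

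DDC (ENSG00000132437.17; chromosome 7, 50458436 to 50565457, minus strand), the aromatic amino acid decarboxylase, was low in every group. It averaged 0.406 ± 0.094 CPM in H9 dexamethasone cultures and 0.565 ± 0.021 in H9 vehicle cultures, against 0.460 ± 0.077 in H1 dexamethasone cultures and 0.533 ± 0.132 in H1 vehicle cultures (SD, n = 3 each). The lines overlapped under both treatments. The log2 difference was -0.20 ± 0.30 under dexamethasone (95% interval -0.85 to 0.45, adjusted p = 0.659) and 0.09 ± 0.28 under vehicle (-0.53 to 0.70, adjusted p = 0.842).

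SLC18A2 (ENSG00000165646.11; chromosome 10, 117241073 to 117279430, plus strand), the vesicular monoamine transporter of neurons, had 1.33, 1.04 and 0.805 CPM in H9 dexamethasone cultures and 1.99, 1.46 and 1.36 CPM in H9 vehicle cultures, against 0.425, 0.660 and 0.390 CPM in H1 dexamethasone cultures and 0.297, 0.955 and 0.840 CPM in H1 vehicle cultures. The lines did not overlap under either treatment. H9 was higher by 1.09 ± 0.39 under dexamethasone and 1.20 ± 0.36 under vehicle (adjusted p = 0.0408 and 0.0178). With 1 library left out, the dexamethasone call was lost without H9 dexamethasone culture 1 or 2, H1 dexamethasone culture 1 or 3 or H1 vehicle culture 3 (adjusted p = 0.136, 0.0833, 0.118, 0.127 and 0.0526), and it was also lost in limma-voom (0.0515). The vehicle call was lost without H9 vehicle culture 1 or H1 vehicle culture 1 (0.0686 and 0.0536) and with only the vehicle libraries in the fit (0.0662). Exons on the opposite strand, among them those of PDZD8, cover 56.1% of the exonic bases of SLC18A2, and the strand setting of the counting is not given in the sources used here, so its reads may not all be its own. For the other members this share was at most 4.18%.

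**Figure D2:**
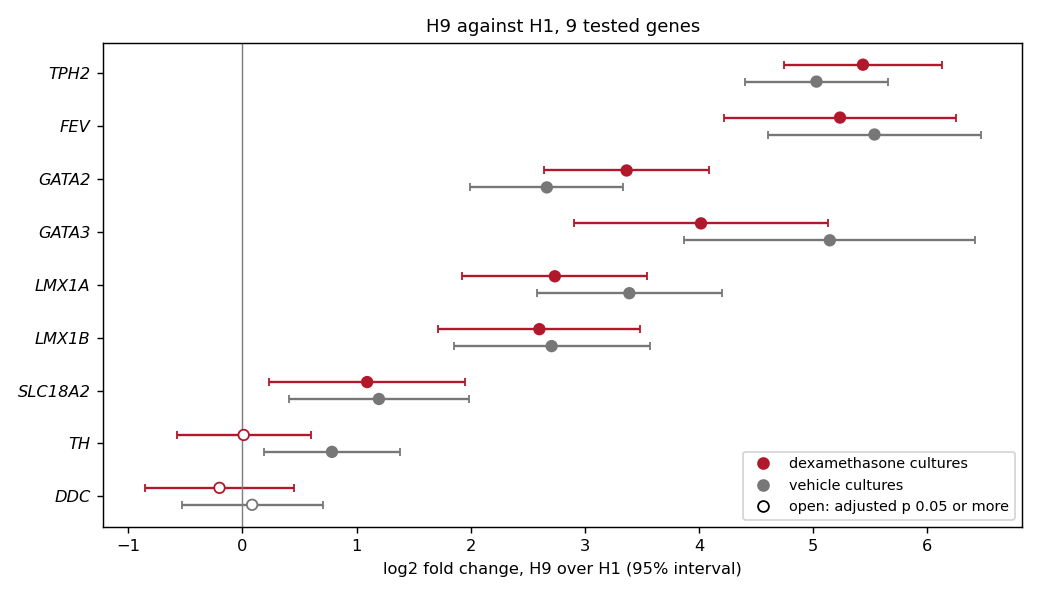
Log2 fold change of H9 over H1 with its 95% interval for the 9 tested genes, with dexamethasone cultures drawn above vehicle cultures and open points where the adjusted p was 0.05 or more. The 6 genes TPH2, FEV, GATA2, GATA3, LMX1A and LMX1B lie at 2.60 or higher in both, SLC18A2 near 1, and TH and DDC near 0 except TH under vehicle.

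TPH2, FEV, GATA2, GATA3, LMX1A and LMX1B passed under both treatments in each of the 12 fits that left out 1 library. Per kilobase of exon, the order of levels differed between the lines. In H9 under dexamethasone it ran TH (5.01 CPM per kilobase), GATA3 (2.07), LMX1A (1.60), TPH2 (1.10), LMX1B (0.926), FEV (0.820), SLC18A2 (0.256), GATA2 (0.254), DDC (0.129) and SLC6A4 (0.0144). The culture ranges of GATA3 and LMX1A overlapped, as did those of neighbours from TPH2 to FEV and of SLC18A2 and GATA2, while TH stood clear. In H9 under vehicle LMX1A (2.51) came before GATA3 (1.99), and neighbours from LMX1A to LMX1B overlapped. In H1 under dexamethasone TH was at 4.98 CPM per kilobase and LMX1A, next in order, at 0.237, with TPH2 (0.0247), GATA2 (0.0234) and FEV (0.0194) at the end. In H1 under vehicle TH was at 3.63 and LMX1A at 0.241, and FEV was again last at 0.0258.

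Dexamethasone moved none of the 9 tested genes past the threshold in either line. In H9, 0.0673% of all genes passed (12 of 17819, all higher), and in H1 0.0505% (9, all higher). In the H9 contrast 2 of the 9 genes had an unadjusted p under 0.05, FEV and TPH2, against 16.3% of all genes, and in the H1 contrast 0 of 9, against 2.95%. DESeq2 and limma-voom also called 0 of the 9 in both lines. In H9 the fold change was negative for 7 of the 9 genes, against 52.3% of all genes, with a median log2 change of -0.48 against -0.02. In H1 it was negative for 6 of the 9, against 50.7% of all genes, with a median of -0.37 against -0.002.

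In H9, FEV gave a log2 change of -0.69 ± 0.26 (95% interval -1.26 to -0.12, adjusted p = 0.299), with every dexamethasone culture under every vehicle culture. TPH2 gave -0.48 ± 0.21 (-0.93 to -0.03, adjusted p = 0.304), and its groups overlapped. LMX1A gave -0.65 ± 0.31 (-1.34 to 0.03, adjusted p = 0.315). The groups of FEV, LMX1A, DDC and SLC18A2 did not overlap, 4 of 9, with the dexamethasone cultures lower in each, against 11.6% of all genes lower and 9.77% higher without overlap. GATA2 and GATA3 gave 0.00 ± 0.24 (-0.51 to 0.52) and 0.06 ± 0.39 (-0.80 to 0.91). Without H9 vehicle culture 3, TPH2 gave -0.67 (adjusted p = 0.0827), the lowest adjusted p of any of the 9 in the 12 fits with 1 library left out.

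In H1, TPH2 gave -0.89 ± 0.46 (95% interval -1.88 to 0.11) from 13 reads in all under dexamethasone and 24 under vehicle, without overlap, and it was the only one of the 9 to separate, against 6.98% of all genes lower and 7.15% higher without overlap. TH gave 0.46 ± 0.27 (-0.14 to 1.05). GATA3 gave 1.19 ± 0.77 (-0.50 to 2.87), a value that came from H1 dexamethasone culture 1 with 26 reads against 3 and 4 in its sisters, and without that culture it was -0.40. The adjusted p was 1 for all 9 genes. The dexamethasone effects of the lines were also set against each other, and 0 of 17819 genes passed, in edgeR as in DESeq2 and limma-voom. By edgeR, 1329 had an unadjusted p under 0.05. TH had the lowest p of the 9 there, with a difference of -0.77 ± 0.38 (H9 minus H1, 95% interval -1.61 to 0.06, adjusted p = 0.548).

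**Figure D3:**
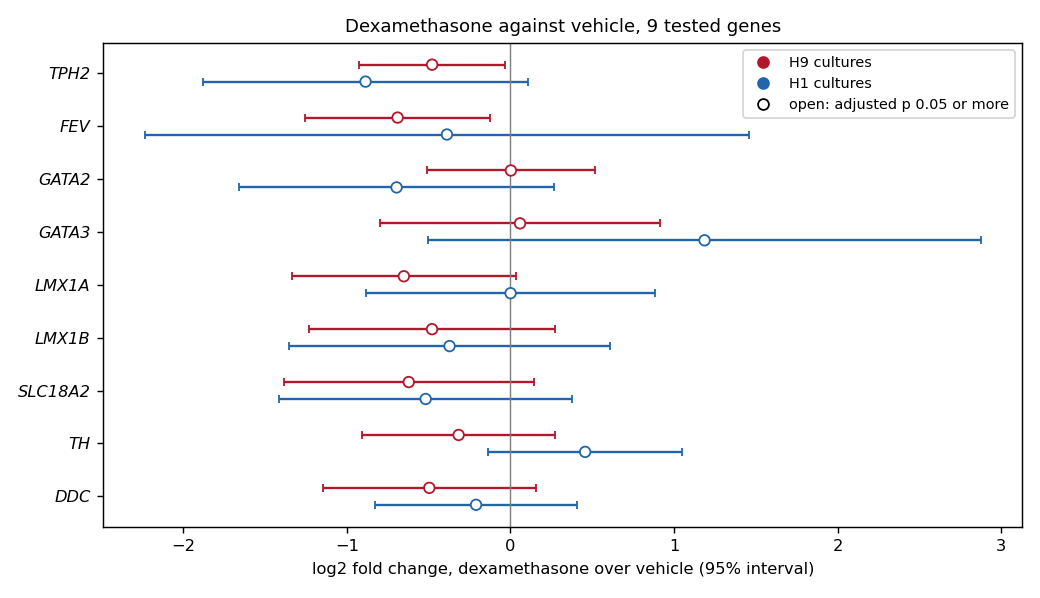
Log2 fold change of dexamethasone over vehicle with its 95% interval for the 9 tested genes, H9 drawn above H1, all points open because no adjusted p was under 0.05. The H9 intervals of TPH2 and FEV end below 0, all other intervals span 0, and those of FEV and GATA3 in H1 are the widest.

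Other genes of the monoamine pathways also differed between the lines. Of 49 further genes in 6 lists, 34 were tested, and 21 were higher and 5 lower in H9 under dexamethasone, 19 higher and 6 lower under vehicle. Over all genes tested, 22.5% were higher and 21.2% lower under dexamethasone, and 25.7% and 21.2% under vehicle. The filter on low counts bears on these lists as on the members. No gene of these lists passed in a dexamethasone contrast. All 8 tested factors and receptors of dopamine neurons were higher in H9 under both treatments. Under vehicle, FOXA1, a pioneer factor of the floor plate, was higher by 2.98 ± 0.40, EN2 by 2.80 ± 0.29 and EN1 by 2.64 ± 0.55, both of them midbrain homeobox genes, and ALDH1A1, a retinaldehyde dehydrogenase of a subset of dopamine neurons, by 2.33 ± 0.64. MSX1, a homeobox gene that Lmx1a induces in the mouse midbrain, was higher by 1.77 ± 0.19, RET, the signalling receptor for GDNF, by 1.56 ± 0.16, NR4A2, a nuclear receptor needed for TH expression, by 0.92 ± 0.16 and GFRA1, the binding receptor for GDNF, by 0.42 ± 0.14. PITX3 and FOXA2, the remaining dopamine factors listed, stayed under 0.5 CPM in every library.

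Other enzymes of the pathways differed in both directions. TPH1, the tryptophan hydroxylase of the gut and pineal gland, was lower in H9, at -1.22 ± 0.41 under dexamethasone and -1.34 ± 0.43 under vehicle (adjusted p = 0.0294 and 0.0226). MAOA, which oxidises monoamines, was lower in H9 under both treatments (-0.73 ± 0.14 and -0.41 ± 0.14). MAOB gave -0.19 ± 0.19 under dexamethasone, which did not pass, and -0.54 ± 0.19 under vehicle, which did. Of the 5 genes that make or recycle tetrahydrobiopterin, the cofactor of TPH2 and TH, 4 were higher in H9 under dexamethasone and 2 under vehicle. GCH1, its entry enzyme, was higher by 0.56 ± 0.16 and 0.43 ± 0.16, and QDPR, which recycles it, by 0.27 ± 0.09 and 0.25 ± 0.09. PCBD1 was higher by 1.47 ± 0.33 under dexamethasone and gave 0.85 ± 0.33 under vehicle, which did not pass, and PTS did not pass under either treatment (0.35 ± 0.18 and 0.15 ± 0.18).

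Among the other transporters, SLC18A1, the vesicular transporter of endocrine cells, was lower in H9 by a log2 change of -0.86 ± 0.25 under dexamethasone and -1.14 ± 0.26 under vehicle. SLC29A4, a plasma membrane monoamine transporter and the most abundant of the list, gave -0.24 ± 0.12 and 0.10 ± 0.12, and SLC22A3 gave 0.59 ± 0.38 and 0.17 ± 0.40; neither passed. SLC6A3, the dopamine transporter, was listed at 0 in all 12 libraries. INSM1, a zinc finger factor of neuronal progenitors that also acts in those of serotonin and noradrenaline neurons, was lower in H9, at -2.44 ± 0.24 under dexamethasone and -2.42 ± 0.24 under vehicle. HAND2 gave 2.19 ± 0.86 under dexamethasone, which did not pass (adjusted p = 0.0583), and 2.08 ± 0.79 under vehicle, which did (0.0467), and NKX2-2 did not pass (0.55 ± 0.45 and 0.98 ± 0.50).

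Receptors for serotonin and dopamine were higher in H9 for 8 of 10 tested genes under dexamethasone and 7 of 10 under vehicle, and none was lower. Of all genes tested, 22.5% and 25.7% were higher. Only 10 of the 17 listed receptors had enough counts to be tested. HTR2C, a serotonin receptor coupled to phospholipase C, averaged 9.72 ± 2.66 CPM in H9 dexamethasone cultures and 11.4 ± 6.3 in H9 vehicle cultures, against 1.27 ± 0.23 in H1 dexamethasone cultures and 1.38 ± 0.25 in H1 vehicle cultures (SD, n = 3 each). HTR6 was higher by 2.61 ± 0.60 under dexamethasone and 3.53 ± 0.62 under vehicle, at under 1 CPM. In H1 it had 6 reads in all under dexamethasone and 4 under vehicle, so it was tested through H9. HTR7 was higher by 1.93 ± 0.22 and 1.71 ± 0.22, and DRD2, the inhibitory dopamine receptor, by 1.46 ± 0.24 and 1.09 ± 0.24. HTR2A (1.17 ± 0.26) and DRD1 (2.02 ± 0.35) passed under dexamethasone and not under vehicle (0.57 ± 0.26 and 1.01 ± 0.39). HTR1E gave 0.37 ± 0.53 under dexamethasone, which did not pass, and 2.42 ± 0.55 under vehicle, which did. HTR1A, the autoreceptor of serotonin neurons, was listed at 0 in all 12 libraries.

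**Figure D4:**
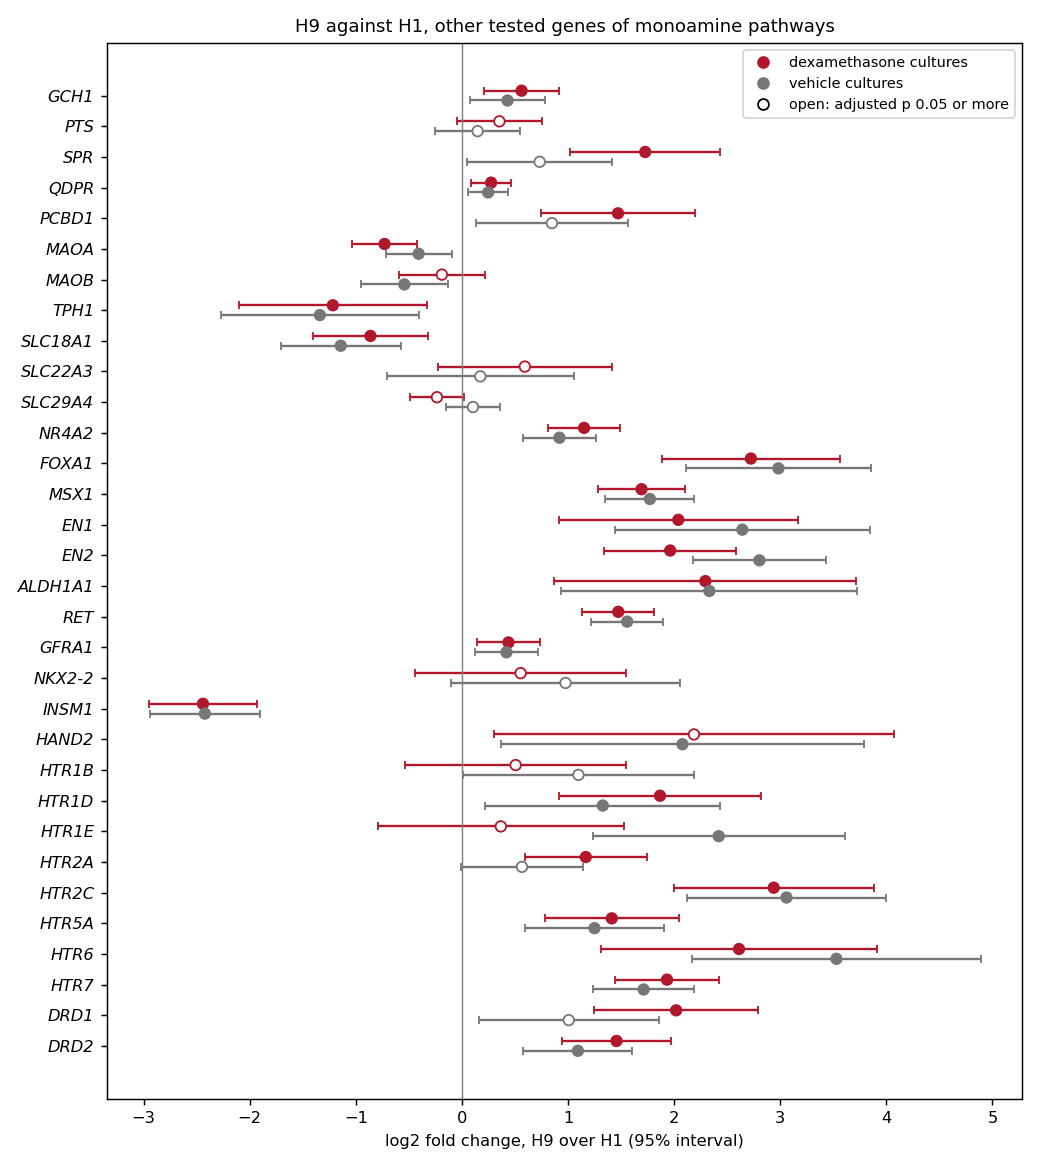
Log2 fold change of H9 over H1 with its 95% interval for 32 tested genes of the monoamine pathway lists, dexamethasone cultures drawn above vehicle cultures and open points where the adjusted p was 0.05 or more. The dopamine neuron factors from NR4A2 to GFRA1 all lie right of 0, HTR6 under vehicle lies farthest right of the genes drawn, and INSM1 lies farthest left.

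Among markers of other cell types that use the same factors, most of those of roof plate and choroid plexus were higher in H9. Those of midbrain and thalamic inhibitory neurons went both ways. Over all genes tested, 22.5% were higher and 21.2% lower in H9 under dexamethasone, and 25.7% and 21.2% under vehicle. Of the roof plate and choroid plexus markers, 5 of 7 were higher in H9 under dexamethasone and 6 of 7 under vehicle, MSX1 among them, and their summed level was 44.7 to 162 CPM in H9 dexamethasone cultures and 39.1 to 141 in H9 vehicle cultures, against 12.2 to 24.2 in H1 dexamethasone cultures and 10.3 to 23.6 in H1 vehicle cultures. GDF7, a signal of the roof plate, was higher by 1.69 ± 0.33 and 1.75 ± 0.33. Of the midbrain and thalamic inhibitory neuron markers, which GATA2 and GATA3 accompany, 7 of 9 were tested, with 2 higher and 2 lower under dexamethasone and 4 higher and 2 lower under vehicle. TAL1 was higher by 4.13 ± 0.65 and 4.38 ± 0.68 and SOX14 by 5.63 ± 0.64 and 4.93 ± 0.65, while HELT was lower by a log2 change of -4.08 ± 0.77 and -4.32 ± 1.05. Each rests on few reads in the lower line. Under dexamethasone and vehicle, H1 had 11 and 9 TAL1 reads in all and 14 and 14 SOX14 reads. For HELT, H9 had 3 and 1. The summed level of that list overlapped between lines under dexamethasone, at 370 to 413 CPM in H9 and 312 to 469 in H1, and was 332 to 433 in H9 and 250 to 306 in H1 under vehicle. Most of this sum was GAD1, GAD2 and SLC32A1, at 179.7, 133.2 and 54.2 CPM in H9 and 139.5, 167.8 and 47.8 in H1 under dexamethasone. It therefore does not describe the rarer genes TAL1, SOX14 and HELT. The part of these cells in the results for LMX1A, GATA2 and GATA3 was not tested.

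Blood and endothelium also use GATA2. Of their 8 markers, PECAM1, CDH5, CD34, PTPRC, GATA1 and KLF1 stayed under 0.5 CPM in every library, and the summed level was 17.7 to 21.1 CPM in H9 and 26.0 to 35.9 in H1 under dexamethasone, and 14.3 to 18.1 in H9 and 22.8 to 28.4 in H1 under vehicle. Neural crest and sympathetic neurons, where GATA2, GATA3 and TH are used, had SOX10 under 0.5 CPM in every library, 0 of 3 tested markers higher under dexamethasone and 2 of 3 under vehicle. Their sum was 17.2 to 21.5 CPM in H9 and 18.5 to 28.4 in H1 under dexamethasone, and 16.9 to 20.2 in H9 and 15.1 to 17.1 in H1 under vehicle. Midbrain and hindbrain position markers had 3 of 9 tested genes higher in H9 under each treatment, with EN1 and EN2 among them, while 2 of 5 forebrain position markers were lower. Beside the counts in this paragraph, 22.5% of all genes tested were higher in H9 and 21.2% lower under dexamethasone. Under vehicle these shares were 25.7% and 21.2%. Pan-neuronal markers were higher for 4 of 8 and 3 of 8, with a sum of 5225 to 5341 CPM in H9 and 3320 to 3877 in H1 under dexamethasone, and 3744 to 4922 in H9 and 3490 to 3497 in H1 under vehicle. Mesenchymal markers had 4 of 8 lower and 1 higher under both treatments, with sums of 210 to 244 CPM in H9 and 1444 to 3055 in H1 under dexamethasone and 233 to 380 in H9 and 1819 to 3269 in H1 under vehicle. Non-neural epithelium had 1 of 7 higher and 3 lower under dexamethasone and 2 higher and 3 lower under vehicle, and neural progenitor markers 0 of 4 higher and 1 of 4. That 1 was NES, at 2562 ± 2580 CPM (SD) in H9 vehicle cultures and 983 ± 47 in H1 vehicle cultures. The progenitor list summed to 4703, 4978 and 7914 CPM in H9 vehicle cultures 1 to 3, highest in the culture that stood apart. The part of the differences in these marker lists in the member results was not tested.

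The H9 sister cultures differed among themselves. GATA3 was lowest in culture 2 of both treatments, at 4.84 CPM under dexamethasone and 4.80 under vehicle. TAL1 was lowest in the same cultures, at 2.81, 1.34 and 3.72 CPM under dexamethasone and 2.27, 1.21 and 4.62 CPM under vehicle, and SOX14 too, at 10.4, 6.22 and 11.6 CPM and 8.35, 4.47 and 4.55 CPM. LMX1A was highest in culture 2 of both treatments, and so was GDF7, at 6.86, 8.43 and 5.79 CPM under dexamethasone and 4.82, 9.18 and 5.37 CPM under vehicle. FEV was also highest in culture 2, whereas TPH2 was highest in culture 2 under dexamethasone and in culture 1 under vehicle. These genes were picked out after their values were seen, and the summed levels of the lists that TAL1, SOX14 and GDF7 come from did not follow them throughout. Such sums are weighted towards abundant genes, so they cannot show whether the rarer genes of a list moved together. In H9 under dexamethasone GAD1, GAD2 and SLC32A1 averaged 179.7, 133.2 and 54.2 CPM, against 2.62 for TAL1 and 9.40 for SOX14. TTR averaged 67.5 CPM there, against 7.03 for GDF7. The midbrain and thalamic inhibitory neuron markers summed highest in culture 2, at 377, 413 and 370 CPM under dexamethasone. Under vehicle culture 2 was again highest, at 368, 433 and 332 CPM. The roof plate and choroid plexus markers summed to 44.7, 89.0 and 162 CPM under dexamethasone and 55.3, 141 and 39.1 CPM under vehicle. A culture number was not shown to link a vehicle culture with a dexamethasone culture.

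**Figure D5:**
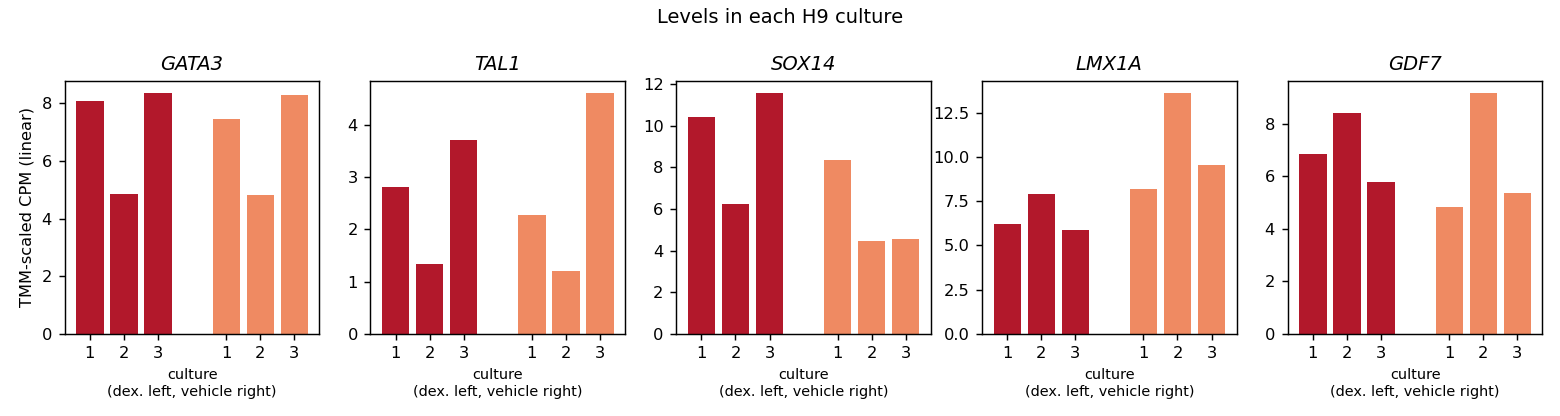
Levels of GATA3, TAL1, SOX14, LMX1A and GDF7 in each H9 culture, as TMM-scaled CPM on linear axes that start at 0, dexamethasone cultures 1 to 3 left and vehicle cultures 1 to 3 right. Culture 2 is lowest for GATA3, TAL1 and SOX14 and highest for LMX1A and GDF7 in both treatments, by a small margin for SOX14 under vehicle. The genes were picked out after their values were seen.

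For the 6 members with a mean of at least 1 CPM, the genes with the most similar pattern were sought among 14966 genes by the Pearson correlation of log2 CPM over the 12 libraries. As the libraries come from 2 lines, most of such a correlation is the line difference, and it is given as a description. TPH2 was closest to CFAP70 (r = 0.996) and GTF2H2B (0.994), whose near-identical gene copies make its counts uncertain, and FEV to MATN2 (0.990) and LINC02427 (0.990). LMX1B was closest to ZNF385B (0.985) and ISM2 (0.979), and for GATA3 the correlation with ADRA1D was 0.993. LMX1A was closest to CATIP (0.983) and RSPO1 (0.982), and with RSPO1, a secreted activator of Wnt signalling, the correlation was 0.952 within the 6 H9 and 0.949 within the 6 H1 libraries. TH was closest to FAAH (0.928) and RPS6KB2 (0.919), with 0.975 and 0.977 within H9 and 0.766 and 0.782 within H1.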

How the data were processed

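Each deposited file holds the authors' raw read counts per gene, unnormalized whole numbers, 1 file per library. The submitters' processing notes list STAR 2.5.3a, HTSeq (no version) and the genome builds hg38 and GRCh38.p10. The strand setting and annotation release were not given in the sources used here. Symbols came from a gene name table for 57532 of 63925 IDs and from GENCODE 29 for 552 more; coordinates and exon lengths are from GENCODE 29, and promoters from RefSeq. No column of another series was present (0). Groups and culture numbers follow the labels.

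Genes were kept by filterByExpr of edgeR 4.0.16 (minimum count 10), libraries were scaled by TMM, and edgeR's quasi-likelihood test was fitted with 1 mean per group over all 12 libraries (residual df 8) and Benjamini-Hochberg adjustment over 17819 genes and a threshold of 0.05. Levels are CPM with TMM-scaled library sizes. The standard error of a log2 fold change is its size over the root of the F value. Likeness used log2(CPM + 0.5). The steps were tested on simulated data. DESeq2 1.42.0 and limma-voom (limma 3.58.1) were among the alternatives, with RLE factors, other filters, a replicate block, fits of the compared groups only and each library left out in turn. R 4.3.3, Python 3.11.15 and matplotlib 3.10.9 were used.

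The genes and lists were chosen with earlier results of these data known. From each pathway list the 4 tested genes of highest mean CPM were named, with any that passed at a log2 change of at least 2 between lines. A few genes that this rule takes in are not reported here. No pair of sister cultures agreed within sampling noise (chi-square per degree of freedom 4.08 or more).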

Additional observations from a re-analysis of the deposited data

How the results depend on the processing

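Of the 9 tested members, 6 or 7 were called between lines under dexamethasone and 6 to 8 under vehicle over the alternatives run, and 0 in the dexamethasone contrasts. Counts over all genes moved more. With only the compared groups in the fit, 5284 genes passed under vehicle (8350 with all groups), 2 for dexamethasone in H9 (12) and 50 in H1 (9). DESeq2 called 156 in H9 and 25 in H1, and no filter on low counts gave 24 in H9. With 1 library left out, the counts were 6106 to 11697 between lines under dexamethasone, 6711 to 10608 under vehicle, 6 to 53 for dexamethasone in H9 and 3 to 59 in H1; without H9 vehicle culture 3 they were 11697, 53 and 59 in the dexamethasone comparisons, and without any 1 of the H1 libraries 3 to 5 in H1. Same-numbered cultures deviated together by r = -0.015, 0.113 and 0.012 in H9 and 0.179, 0.1 and 0.05 in H1. For differently numbered cultures r was -0.134 to 0.084 in H9 and -0.178 to 0.073 in H1. These values do not settle whether a shared number links a vehicle culture with a dexamethasone culture. With the replicate block, 5 genes passed for dexamethasone in H1, and SLC18A2 between lines under dexamethasone gave 1.10 (adjusted p = 0.056; limma-voom 0.0515).

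Several log2 changes that had not passed turned sign. Between lines under dexamethasone, TH gave -0.01 in limma-voom and -6e-04 with the replicate block. For dexamethasone, GATA2 in H9 gave -0.0067 with a filter of 1 CPM in 3 libraries and -0.0045 in limma-voom, and LMX1A in H1 -3e-04 and, in DESeq2, -0.0062. With 1 library left out the ranges were -0.0547 to 0.2913 for DDC between lines under vehicle and -0.257 to 0.1733 for TH under dexamethasone. For dexamethasone in H9 they were -0.1422 to 0.2751 for GATA3, -0.0717 to 0.0687 for GATA2 and -0.5823 to 0.0291 for TH. In H1 they were -0.3917 to 0.5411 for LMX1A, -0.7414 to 0.4167 for LMX1B, -0.3453 to 8e-04 for DDC, -1.2178 to 0.1547 for FEV and -0.4043 to 1.6068 for GATA3. For the difference of the effects they were -0.3938 to 0.2505 for SLC18A2, -0.893 to 0.2652 for LMX1B, -1.5447 to 0.4657 for GATA3 and -0.8421 to 0.5305 for FEV. The cause was not tested. FEV, GATA2, GATA3 and TPH2 in H1 and SLC6A4 in all groups rest on so few reads that changes in them could be missed. The smallest change that could be detected was not computed.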
